A study of Homo sapiens with 4 samples.

Results

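The genes described here encode the subunits of potassium, sodium and calcium channels in HEK293T cells with and without loss of the forkhead transcription factor FOXP4. They were taken by symbol, as every KCN, SCN, SCNN1 and CACNA, CACNB or CACNG gene of the deposited tables. The choice gave 140 genes, 96 for potassium, 18 for sodium and 26 for calcium channels. Of these, 103 were in the count table of 15218 genes, and 94 of the 14620 genes that passed the filter on low counts were channel genes. Another 9 were in the count table but did not pass the filter, and 37 were found only in the table of TPM, a transcript level scaled by gene length and library total, which holds 20263 rows.

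RNA sequencing compared 2 FOXP4 KO libraries with 2 Control libraries of HEK293T, an established human embryonic kidney line with the SV40 large T antigen, grown in DMEM with fetal bovine serum and antibiotics. The FOXP4 KO libraries both carry KO number 1 in their titles, so they were taken to be 1 line. For the loss of FOXP4 the sources name CRISPR-Cas9 knockout, an shRNA virus with puromycin selection, and a knock down, and the Control cells are wild type for FOXP4. No label says whether the libraries of a group are separate cultures, and the p-values then cover only their own spread, which may be technical.

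FOXP4 itself had 713 and 886 counts in the FOXP4 KO libraries, against 2562 and 2463 counts in the Control libraries. Its transcript was lower in FOXP4 KO by a log2 fold change of −1.78 ± 0.19 (SE, edgeR quasi-likelihood test, Benjamini-Hochberg adjusted p = 0.0038), so it was reduced and still present. Total counts were 36393224 to 43057305 per library, and mitochondrially encoded genes took 4.79% to 6.84% of them. Log2 normalised counts correlated across genes at 0.984 and 0.989 within groups and at 0.946 to 0.956 between groups. Of the markers of the line, vimentin (VIM), a filament protein of mesenchymal cells, was lower in FOXP4 KO with a log2 fold change of −1.99 (adjusted p = 0.0041, edgeR), and NEFM, a neurofilament protein, was higher, with a log2 fold change of 1.97 (adjusted p = 0.0254, edgeR). NEFL, PAX2 and LHX1 did not pass the test, and the 5 markers together, with VIM the largest, summed to 432 and 360 TPM in FOXP4 KO, against 821 and 982 TPM in Control. The 11 markers of blood, liver, heart, mature neurons, glia and mature kidney summed to 6.0 and 5.78 TPM in FOXP4 KO, against 10.3 and 9.97 TPM in Control, and UMOD, the marker of the kidney tubule, was listed at 0 in all 4 libraries. RBFOX3, of mature neurons, had 1.62 and 1.68 TPM in FOXP4 KO, against 5.97 and 6.24 TPM in Control. It was called lower (log2 fold change −1.52, adjusted p = 0.0311, edgeR). RYR2, SYN1 and GFAP, with log2 fold changes of 0.50, −0.82 and 0.54, did not pass the test. The part of these markers in the channel results was not tested. In bulk RNA of this kind, fewer cells with a transcript and less transcript per cell cannot be told apart.

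Ion channels are membrane pores that let one kind of ion pass down its gradient. Potassium channels draw the membrane toward a negative resting voltage, voltage-gated sodium channels carry the rising phase of action potentials, epithelial sodium channels absorb salt, and voltage-gated calcium channels turn a change of voltage into calcium entry. A pore-forming subunit is usually joined by accessory subunits that set its gating and its transport to the surface. HEK293T cells fire no action potentials and are widely used to express cloned channels, against a background of small currents of their own.

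The channel transcripts of HEK293T cells were few and led by potassium and calcium channel genes. At a group mean of at least 1 TPM, 57 of the 140 genes were expressed in FOXP4 KO and 53 in Control, 50 of them in both. By the mean of all 4 libraries, 12 genes were above 10 TPM, 45 were between 1 and 10 TPM, 40 between 0.1 and 1 TPM, 26 above 0 and up to 0.1 TPM, and 17 were listed at 0 in every library. Summed over genes, potassium channel transcripts came to 259 and 268 TPM in FOXP4 KO, against 231 and 251 TPM in Control. Calcium channel transcripts summed to 111 and 121 TPM in FOXP4 KO, against 93.9 and 102 TPM in Control, and sodium channel transcripts to 34.3 and 34.1 TPM, against 33.2 and 33.0 TPM. The 2 groups did not overlap in any of the 3 sums, though for potassium and calcium the gap between them was smaller than the spread between the FOXP4 KO libraries, and no test was made of the sums.

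KCNG1, an electrically silent subunit that conducts only when joined to a Kv2 pore, was among the most abundant channel transcripts, with 16.9 and 16.1 TPM in FOXP4 KO, against 28.8 and 31.7 TPM in Control. CACNB3, a cytosolic calcium channel beta subunit, had 23.0 and 24.6 TPM in FOXP4 KO, against 18.4 and 19.7 TPM in Control. CACNA1H, a low-voltage-activated T-type calcium pore, had 17.7 and 18.4 TPM in FOXP4 KO, against 21.8 and 23.9 TPM in Control. In these 3 genes the levels of the groups did not overlap, and of the 3 the counts of KCNG1 passed the test. The ATP-sensitive pore subunits were KCNJ8, with 18.8 and 15.6 TPM in FOXP4 KO, against 20.8 and 20.5 TPM in Control, and KCNJ11, with 15.9 and 15.9 TPM in FOXP4 KO, against 6.58 and 11.0 TPM in Control. Neither passed the test, but KCNJ11, with an adjusted p of 0.0563 in edgeR, was near the threshold. It was called higher by DESeq2 (adjusted p = 0.0158), by limma-voom (0.0403) and with a replicate block (0.0244, edgeR). The other fits of all 4 libraries did not call it. Its log2 fold change was 0.51 without Control library 1 and 1.30 without Control library 2. Also among the 10 genes with the highest levels were KCNK1, SCNN1D and KCNC4, described below with the genes that changed, and CACNA2D2, an alpha2-delta subunit, with 8.80 and 11.1 TPM in FOXP4 KO and 9.12 and 11.9 TPM in Control, where the groups overlapped.

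**Figure D1:**
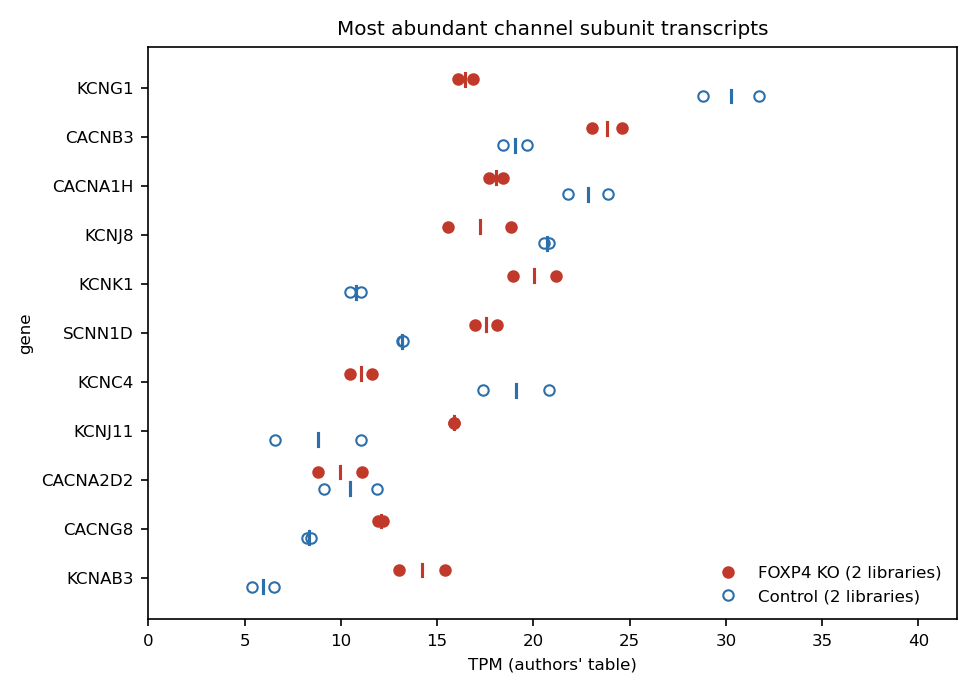
TPM (horizontal axis, linear) of 11 channel genes with a mean above 10 TPM. Each point is a library, filled red for FOXP4 KO and open blue for Control, and each bar is the mean of the 2 libraries; KCNK1 lies at 18.9 and 21.2 TPM in FOXP4 KO and at 11.1 and 10.5 TPM in Control, while the points of CACNA2D2 overlap.

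Many single members of the expressed families were near or at 0. Of the 37 genes found only in the TPM table, 17 were listed at 0 in all 4 libraries, among them the sodium channel pores SCN10A and SCN7A, the calcium channel pore CACNA1F and the two-pore-domain channels KCNK10, KCNK16, KCNK17 and KCNK18. No gene of the 37 reached 1 TPM, and the highest value was 0.326 TPM for KCNA1 in Control library 1. KCNA1 had 0.297 TPM in Control library 2, and 0 and 0.0119 TPM in FOXP4 KO. The delta subunit gene of the epithelial sodium channel, SCNN1D, was expressed without the subunits of the classical kidney channel. SCNN1A had 0.0534 and 0.131 TPM in FOXP4 KO and 0.0653 and 0.239 TPM in Control, SCNN1B was at or under 0.141 TPM in every library, and SCNN1G was listed at 0 throughout.

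In FOXP4 KO relative to Control, 19 of the 94 tested channel genes were higher and 10 were lower at an adjusted p under 0.05 (edgeR quasi-likelihood test, Benjamini-Hochberg over all 14620 genes). That is 20.2% higher and 10.6% lower, beside 13.8% of all tested genes higher and 12.1% lower. The median log2 fold change was 0.26 over the channel genes and 0.0085 over all tested genes, and the log2 fold change was above 0 in 60 of the 94. Potassium channels gave 12 higher and 6 lower of 63, calcium channels 5 higher and 1 lower of 18, and sodium channels 2 higher and 3 lower of 13. Read by abundance, 11.1% of the 27 channel genes under 1 CPM (counts scaled to the normalised library total) were called, beside 13.2% of all such genes. From 1 to 10 CPM the share was 40.5% of 42 channel genes beside 29.8% of all genes, and from 10 CPM upward 36% of 25 beside 26.3%. The share of channel genes called at all, 30.9%, was near the 25.8% of all tested genes, so the count by itself does not set these families apart.

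**Figure D2:**
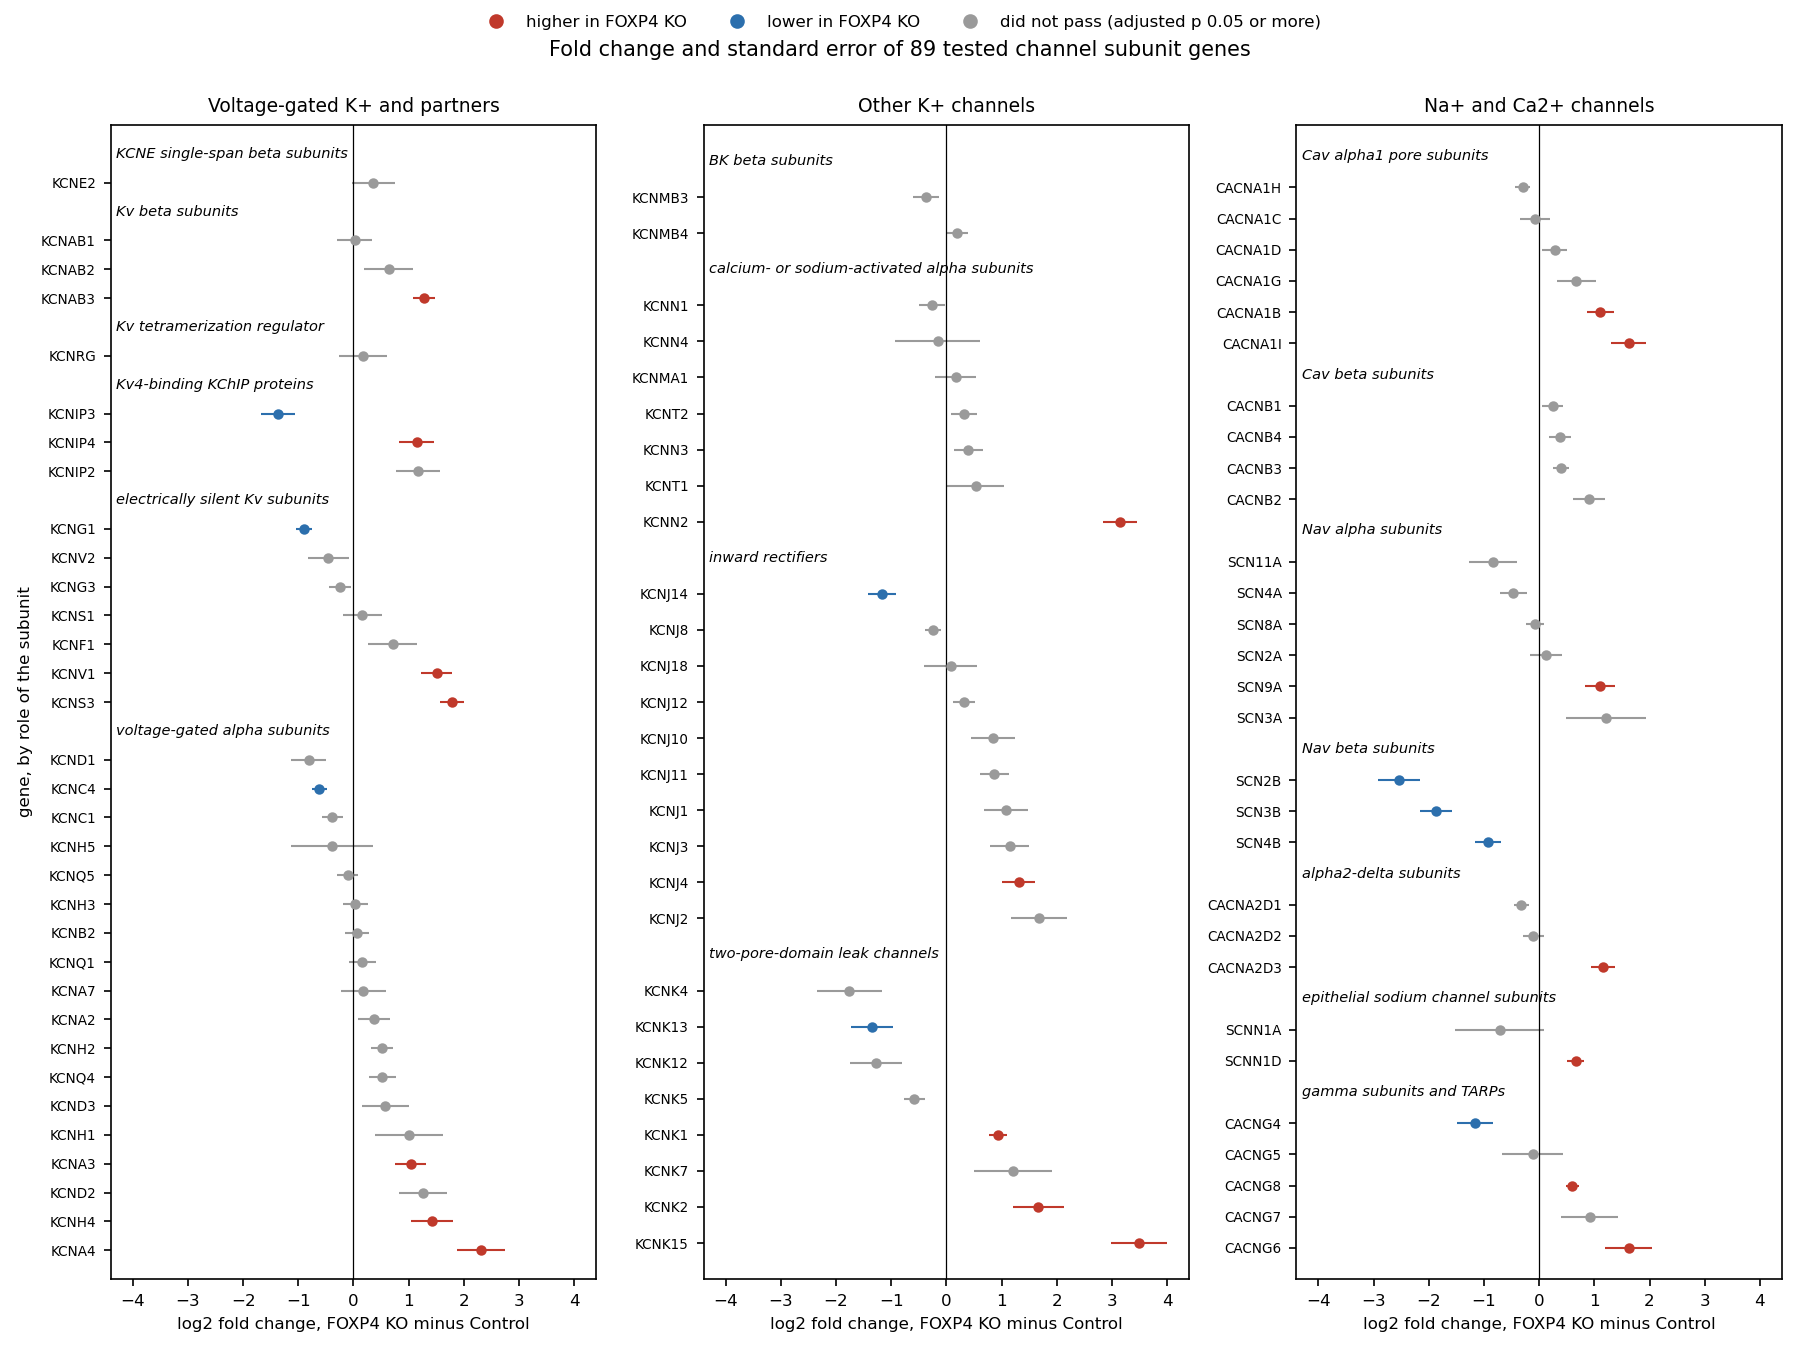
Log2 fold change (horizontal axis, FOXP4 KO minus Control) with its standard error for 89 tested channel genes, grouped by the role of the subunit. Red genes were higher in FOXP4 KO (19), blue genes lower (9) and grey genes did not pass the test (61); the 3 sodium channel beta subunits drawn all lie left of 0 and the 4 calcium channel beta subunits all lie right of 0, none of the calcium channel ones past the test.

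The largest increases were in the potassium channel genes KCNK15 and KCNN2. KCNK15 (chromosome 20, 44745780 to 44752313, forward strand) belongs to the two-pore-domain family, whose members set the resting voltage as open leaks, though its own product gives little current when expressed alone. It had 126 and 139 counts in the FOXP4 KO libraries, against 4 and 18 counts in the Control libraries, or 2.25 and 2.53 TPM against 0.0875 and 0.323 TPM. Both FOXP4 KO libraries stood far above both Control libraries, and in proportion the Control libraries were further from each other. The log2 fold change was 3.50 ± 0.51 (SE, n = 2 each, adjusted p = 0.0077, edgeR), an 11.3-fold difference, which became 4.74 without Control library 2 and 2.87 without Control library 1. Exons of KCNK15 overlap those of KCNK15-AS1 and RIMS4 on the opposite strand, and whether reads were counted by strand is not given in the sources used here. RIMS4, an opposite-strand neighbour with more reads, was lower in FOXP4 KO, with 1877 and 1768 counts against 2388 and 3242 counts in Control (log2 fold change −0.73, adjusted p = 0.0096, edgeR).

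KCNN2 (chromosome 5, 114055545 to 114496500, forward strand) encodes a small-conductance potassium channel that opens when calcium binds its calmodulin. It had 309 and 316 counts in FOXP4 KO, against 37 and 27 counts in Control, or 5.75 and 5.91 TPM against 0.795 and 0.416 TPM. The libraries of each group lay close together and the groups lay far apart. The log2 fold change was 3.15 ± 0.30 (SE, n = 2 each, adjusted p = 0.0032, edgeR), an 8.88-fold difference, and with single libraries left out it ran between 2.81 and 3.53. The other small-conductance genes did not pass the test. KCNN1 had 174 and 169 counts in FOXP4 KO, against 196 and 177 in Control, KCNN3 had 93 and 116 against 65 and 82, and KCNN4, the intermediate-conductance channel of blood cells and epithelia, had 10 and 10 against 16 and 4. The large-conductance calcium-activated pore KCNMA1 was low at 45 and 31 counts in FOXP4 KO and 32 and 30 in Control, and its beta subunits KCNMB3 and KCNMB4 did not pass the test.

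Among the other two-pore-domain genes, KCNK2 and KCNK1 were higher and KCNK13 was lower. KCNK2, a leak channel opened by membrane stretch and heat, had 317 and 243 counts in FOXP4 KO, against 38 and 131 counts in Control. The Control libraries were far apart, and the log2 fold change of 1.67 ± 0.46 (SE, adjusted p = 0.0432, edgeR) became 2.61 without Control library 2 and 1.09 without Control library 1, where the adjusted p was 0.0527 (edgeR). KCNK1, a weakly rectifying leak channel and the sixth most abundant channel transcript, had 872 and 956 counts in FOXP4 KO, against 417 and 463 counts in Control. Both groups were tight and did not overlap, at 21.5 ± 1.88 CPM in FOXP4 KO and 11.2 ± 0.739 CPM in Control (SD, n = 2 each), a 1.92-fold difference (log2 fold change 0.94, adjusted p = 0.0116, edgeR). KCNK13, a halothane-inhibited channel, had 16 and 26 counts in FOXP4 KO, against 43 and 57 counts in Control (log2 fold change −1.35, adjusted p = 0.0465, edgeR). KCNK5, a leak channel sensitive to external acid, had 6.01 and 5.09 TPM in FOXP4 KO, against 9.17 and 7.77 TPM in Control, and did not pass the test (adjusted p = 0.0654, edgeR). The calls of KCNK2 and KCNK1 were lost without either FOXP4 KO library, the call of KCNK2 also without Control library 1, and that of KCNK13 in each of the 4 fits with a library left out, with adjusted p of up to 0.157, 0.0697 and 0.255 for KCNK2, KCNK1 and KCNK13. KCNK13 was also not called by DESeq2.

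Of 21 tested pore subunits of voltage-gated potassium channels, 3 were higher and 2 lower. That is 14.3% and 9.52%, near the 13.8% and 12.1% of all tested genes. KCNA4, the pore of a rapidly inactivating A-type current, had 34 and 36 counts in FOXP4 KO, against 5 and 8 counts in Control. Its level was low, at 0.369 and 0.398 TPM in FOXP4 KO and 0.0680 and 0.0874 TPM in Control, and the groups were well apart (log2 fold change 2.30 ± 0.44 SE, adjusted p = 0.0149, edgeR). KCNA3, the delayed rectifier best known from T lymphocytes, had 124 and 115 counts in FOXP4 KO, against 40 and 69 counts in Control. KCNH4, of the ether-a-go-go family, had 107 and 134 counts in FOXP4 KO, against 25 and 60 counts in Control. In proportion the Control libraries of both genes differed more from each other than the FOXP4 KO libraries did, and the log2 fold changes were 1.04 for KCNA3 and 1.42 for KCNH4. A decrease was seen in one of the more abundant pores. KCNC4, of the high-voltage-activated Kv3 type, had 1948 and 1976 counts in FOXP4 KO, against 2277 and 3355 counts in Control, and averaged 46.2 ± 1.49 CPM against 71.0 ± 9.50 CPM (SD, n = 2 each; log2 fold change −0.62, adjusted p = 0.0217, edgeR). The calls of these 4 genes were lost without either FOXP4 KO library, those of KCNA3, KCNA4 and KCNH4 also without Control library 1, with adjusted p of up to 0.196 for KCNA3, 0.0803 for KCNA4, 0.186 for KCNH4 and 0.113 for KCNC4. KCNA3 and KCNH4 were also not called by limma on log2 TPM, nor KCNA3 by DESeq2. The other 16 pore subunits did not pass the test, among them KCNH2, the cardiac repolarising channel, at 4.49 and 5.34 TPM in FOXP4 KO and 3.55 and 3.42 TPM in Control.

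The silent subunits, which reach the surface only with a Kv2 pore and shift its gating, changed in both directions. KCNS3 (chromosome 2, 17877847 to 18361616, forward strand) had 360 and 352 counts in FOXP4 KO, against 78 and 114 counts in Control. It averaged 8.38 ± 0.0527 CPM in FOXP4 KO and 2.42 ± 0.310 CPM in Control (SD, n = 2 each), with no overlap, and was 3.46-fold higher (log2 fold change 1.79 ± 0.21 SE, adjusted p = 0.0051, edgeR). KCNV1 had 200 and 255 counts in FOXP4 KO, against 55 and 95 counts in Control (log2 fold change 1.51, adjusted p = 0.0146, edgeR). KCNG1 went the other way, with 596 and 587 counts in FOXP4 KO, against 902 and 1141 counts in Control, or 13.9 ± 0.159 CPM against 25.9 ± 0.686 CPM (SD, n = 2 each; log2 fold change −0.90, adjusted p = 0.0093, edgeR). The Kv2 pore gene KCNB2 had 287 and 333 counts in FOXP4 KO and 219 and 334 in Control, where the groups overlapped, and it did not pass the test. The call of KCNS3 held with each library left out, that of KCNV1 was lost without either FOXP4 KO library (adjusted p up to 0.0931) and that of KCNG1 without FOXP4 KO library 1 (adjusted p = 0.0591).

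Cytosolic partners of the voltage-gated pores were split as well. KCNAB3, a beta subunit that binds Kv1 pores, had 608 and 708 counts in FOXP4 KO, against 251 and 247 counts in Control, a 2.43-fold difference (log2 fold change 1.28 ± 0.20 SE, adjusted p = 0.0093, edgeR). The groups were far apart, while KCNAB2, the related beta subunit, had 829 and 627 counts in FOXP4 KO, against 205 and 698 in Control, overlapped and did not pass the test. Of the KChIP proteins, calcium sensors that bind Kv4 pores, KCNIP3 was lower, with 37 and 41 counts in FOXP4 KO, against 70 and 120 counts in Control (log2 fold change −1.37, adjusted p = 0.0252, edgeR). KCNIP3 is also known as calsenilin and as a calcium-regulated transcriptional repressor. KCNIP4 was higher, with 122 and 81 counts in FOXP4 KO, against 37 and 48 counts in Control (log2 fold change 1.14, adjusted p = 0.0418, edgeR). Of the Kv4 pores that KChIP proteins bind, KCND2 had 166 and 181 counts in FOXP4 KO, against 33 and 105 in Control, and KCND1 had 120 and 84, against 183 and 141, both without passing the test. The call of KCNIP4 was lost with each library left out (adjusted p up to 0.27), that of KCNIP3 without Control library 2 or either FOXP4 KO library (up to 0.151) and that of KCNAB3 without FOXP4 KO library 2 (0.0582). KCNIP4 was also not called by DESeq2, limma-voom or limma on log2 TPM.

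Inward rectifiers pass potassium more easily into the cell than out of it. KCNJ4 was higher, with 312 and 276 counts in FOXP4 KO, against 73 and 151 counts in Control (log2 fold change 1.31 ± 0.29 SE, adjusted p = 0.0239, edgeR). KCNJ14 was lower, with 126 and 86 counts in FOXP4 KO, against 205 and 234 counts in Control (log2 fold change −1.17, adjusted p = 0.0221, edgeR). Exons of KCNJ14 overlap GRWD1 on the same strand, a far more abundant gene with 4633 and 4507 counts in FOXP4 KO, against 7406 and 8378 counts in Control, lower by a log2 fold change of −0.90 (adjusted p = 0.0051, edgeR). Whether reads of GRWD1 entered the KCNJ14 counts was not tested. The other 8 rectifiers did not pass. KCNJ11, KCNJ2 and KCNJ3 came closest, with log2 fold changes of 0.87, 1.68 and 1.15 and adjusted p of 0.0563, 0.0538 and 0.0589 (edgeR). KCNJ12 and KCNJ18 are near-identical copies, so the split of reads between them is uncertain, and neither passed. KCNJ4 lost its call without either FOXP4 KO library (adjusted p up to 0.114), and KCNJ14 also without Control library 1 (up to 0.144).

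**Figure D3:**
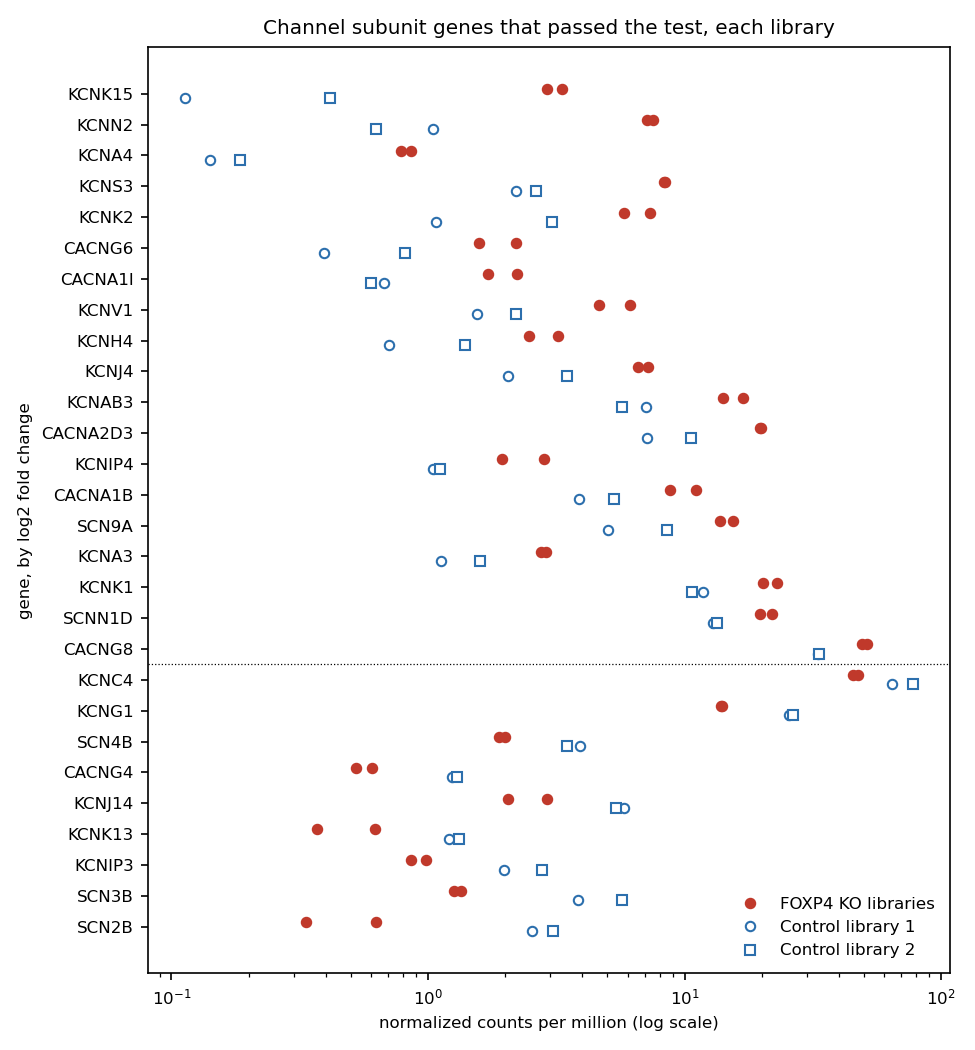
Normalised CPM (horizontal axis, log scale) in each library for 28 channel genes that passed the test, ordered by log2 fold change. Filled red points are the 2 FOXP4 KO libraries, open blue circles Control library 1 and open blue squares Control library 2. The groups do not overlap in any of the 28, which were picked by the test on these counts, and 68.7% of all tested genes also show no overlap. Control library 2 lies above Control library 1 in 15 of the 19 higher genes, beside 65.8% of all genes called higher.

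The sodium channels fell in their accessory subunits. The beta subunits are single-span proteins with an immunoglobulin domain that speed the gating of sodium channel pores and act in cell adhesion. In FOXP4 KO 3 of 4 were lower, beside 12.1% of all tested genes. SCN2B (chromosome 11, 118161951 to 118176673, reverse strand) had 27 and 14 counts in FOXP4 KO, against 90 and 133 counts in Control. All values were low, at 0.209 and 0.107 TPM in FOXP4 KO and 0.874 and 1.08 TPM in Control, and the groups were well apart. The difference was 5.81-fold (log2 fold change −2.54 ± 0.38 SE, adjusted p = 0.0081, edgeR), and it ran between −3.06 and −2.16 with single libraries left out, with an adjusted p of at most 0.046. SCN3B (chromosome 11, 123629187 to 123655244, reverse strand) had 58 and 53 counts in FOXP4 KO, against 136 and 246 counts in Control (log2 fold change −1.87 ± 0.29 SE, adjusted p = 0.0089, edgeR). SCN4B (chromosome 11, 118133377 to 118152888, reverse strand), beside SCN2B on the chromosome, had 86 and 79 counts in FOXP4 KO, against 139 and 151 counts in Control (log2 fold change −0.93 ± 0.24 SE, adjusted p = 0.0337, edgeR). SCN3B lost its call without either FOXP4 KO library (adjusted p up to 0.0562), and SCN4B also without Control library 1 (up to 0.198). SCN4B was also not called by limma on log2 TPM.

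Of 7 sodium channel pores tested, 1 was higher, which is 14.3%, near the 13.8% of all tested genes. This was SCN9A, the pore of pain-sensing neurons. It had 594 and 647 counts in FOXP4 KO, against 179 and 368 counts in Control (log2 fold change 1.10 ± 0.27 SE, adjusted p = 0.0313, edgeR). SCN8A, the pore of the axon initial segment, had 529 and 566 counts in FOXP4 KO, against 477 and 591 in Control, and did not pass. SCNN1D was higher, with 852 and 918 counts in FOXP4 KO, against 456 and 580 counts in Control, or 20.9 ± 1.56 CPM against 13.1 ± 0.399 CPM (SD, n = 2 each; log2 fold change 0.67, adjusted p = 0.0261, edgeR). Both SCN9A and SCNN1D lost the call without Control library 1 or either FOXP4 KO library, with adjusted p of up to 0.125 for SCN9A and 0.144 for SCNN1D, and neither was called by limma on log2 TPM.

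Calcium channel genes were mostly higher where they passed. CACNA1B, the pore of the presynaptic N-type channel, had 478 and 366 counts in FOXP4 KO, against 138 and 229 counts in Control (log2 fold change 1.11 ± 0.24 SE, adjusted p = 0.0224, edgeR). CACNA1I, a T-type pore, had 74 and 93 counts in FOXP4 KO, against 24 and 26 counts in Control (log2 fold change 1.62 ± 0.32 SE, adjusted p = 0.0168, edgeR). Both groups of CACNA1I were tight, but its level of 0.345 and 0.439 TPM in FOXP4 KO and 0.132 and 0.122 TPM in Control was far under that of the T-type pore CACNA1H, which did not pass. CACNA2D3, an extracellular alpha2-delta subunit, had 852 and 826 counts in FOXP4 KO, against 252 and 457 counts in Control (log2 fold change 1.16 ± 0.22 SE, adjusted p = 0.0157, edgeR). The related CACNA2D1 and CACNA2D2 did not pass, so that CACNA2D3, at 12.5 and 13.5 TPM in FOXP4 KO and 4.38 and 6.97 TPM in Control, was the highest of these 3 in FOXP4 KO and the lowest of these 3 in Control by mean TPM. None of the 4 beta subunits passed, although all 4 had log2 fold changes above 0, from 0.24 to 0.90. CACNA1B lost its call without Control library 1 or either FOXP4 KO library (adjusted p up to 0.139), and CACNA1I and CACNA2D3 without either FOXP4 KO library (up to 0.118 and 0.0696).

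The gamma family holds skeletal muscle calcium channel subunits and the TARP proteins, which escort AMPA glutamate receptors. CACNG8, a TARP and by far the most abundant member, had 2127 and 2148 counts in FOXP4 KO, against 1172 and 1443 counts in Control, or 50.4 ± 1.47 CPM against 33.2 ± 0.244 CPM (SD, n = 2 each; log2 fold change 0.60, adjusted p = 0.0157, edgeR). CACNG6 had 68 and 92 counts in FOXP4 KO, against 14 and 35 counts in Control (log2 fold change 1.62 ± 0.42 SE, adjusted p = 0.0368, edgeR). CACNG6 and CACNG8 lie side by side on chromosome 19, and their groups did not overlap. CACNG4, a TARP on chromosome 17, was lower, with 26 and 22 counts in FOXP4 KO, against 44 and 56 counts in Control (log2 fold change −1.16, adjusted p = 0.0447, edgeR). CACNG6 and CACNG8 lost their calls without Control library 1 or either FOXP4 KO library, with adjusted p of up to 0.183 and 0.0958, and the log2 fold change of CACNG6 became 2.24 without Control library 2. CACNG4 lost its call in each of the 4 fits with a library left out (adjusted p up to 0.241) and under DESeq2.

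**Figure D4:**
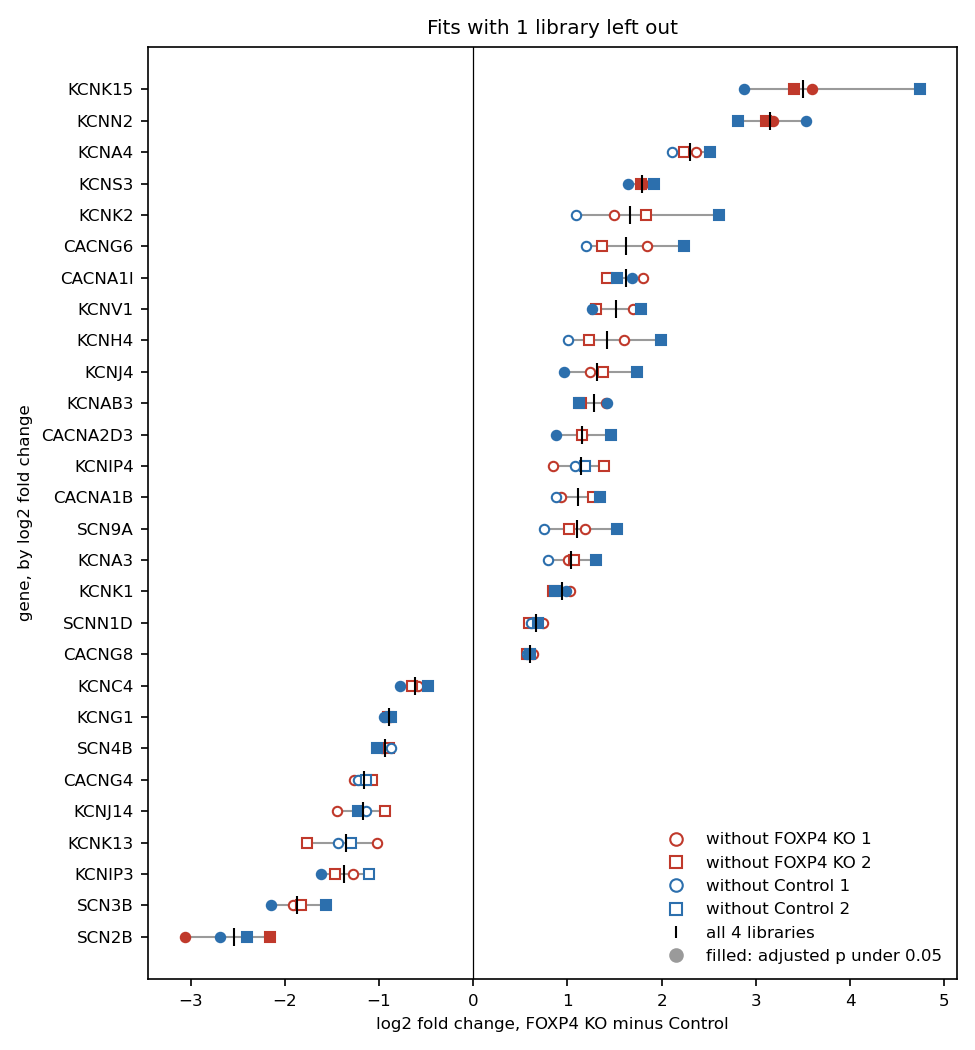
Log2 fold change (horizontal axis, FOXP4 KO minus Control) of 28 called genes in fits with 1 library left out, red where a FOXP4 KO library and blue where a Control library was left out, filled where the adjusted p was under 0.05. The black tick is the fit of all 4 libraries; KCNK15, KCNN2, KCNS3 and SCN2B are filled in all 4 fits, and no gene crosses 0.

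The 29 calls differed in how far they rested on single libraries. All 29 had the same sign in TPM as in counts and no overlap of the groups in CPM, a separation that 65 of the 94 channel genes (69.1%) and 68.7% of all tested genes showed. Both traits come from the libraries that gave the calls, so neither is separate support for them. Only KCNK15, KCNN2, KCNS3 and SCN2B were called in all 4 fits that leave out 1 library, and KCNIP4, KCNK13 and CACNG4 were called in none of them. Without FOXP4 KO library 1, 4 of the 19 higher and 1 of the 10 lower genes kept their calls, and without FOXP4 KO library 2 it was 3 and 2. Over all genes the calls fell in the same way, to 641 higher and 467 lower without FOXP4 KO library 1, beside 2013 higher and 1765 lower with all 4 libraries. Upper-quartile scaling gave 2383 higher and 1368 lower over all genes, and 19 higher and 8 lower among the channel genes. Between the Control libraries, the channel genes leaned toward Control library 2 more often than all tested genes did. Control library 2 was above Control library 1 in 63 of the 94 channel genes (67%) and in 15 of the 19 higher ones, beside 50.5% of all tested genes and 65.8% of all genes called higher. In these 15 genes the FOXP4 KO libraries had to lie above Control library 2, because the genes were called higher without overlap of the groups. Control library 2 was also above Control library 1 in 8 of the 10 lower channel genes, beside 39.6% of all genes called lower. The part of this difference between the Control libraries in the calls was not tested.

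Some channel genes lay among neighbours that also changed. For each tested gene, the median log2 fold change of the tested genes next to it, up to 10 on each side, was taken along GRCh38. It was above 0.4 for 7 of the 19 higher genes and for 4 of the 65 that did not pass, and below −0.4 for 0 of the 10 lower ones. The 7 include CACNG6 and CACNG8, each a neighbour of the other, with a median of 0.47 for both. No such share was taken over all tested genes. CACNA1I and KCNJ4, both on chromosome 22, had neighbourhood medians of 0.76 and 0.59, with 10 of 20 neighbours higher in each. KCNN2 had a neighbourhood median of 0.52, with 11 of 20 neighbours higher, and KCNIP4 one of 0.52, with 9 of 20 higher. KCNK15 and KCNS3 stood apart from theirs, with medians of −0.10 and 0.17. For the sodium channel beta genes the medians were −0.06 around SCN2B, 0.21 around SCN3B and −0.35 around SCN4B. Of 20 neighbours each, 7, 1 and 8 were lower, and 2 were higher around each gene. SCN2B and SCN4B are each a neighbour of the other and both lower, so their neighbourhoods overlap. The part of these neighbourhoods in the channel calls was not tested.

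**Figure D5:**
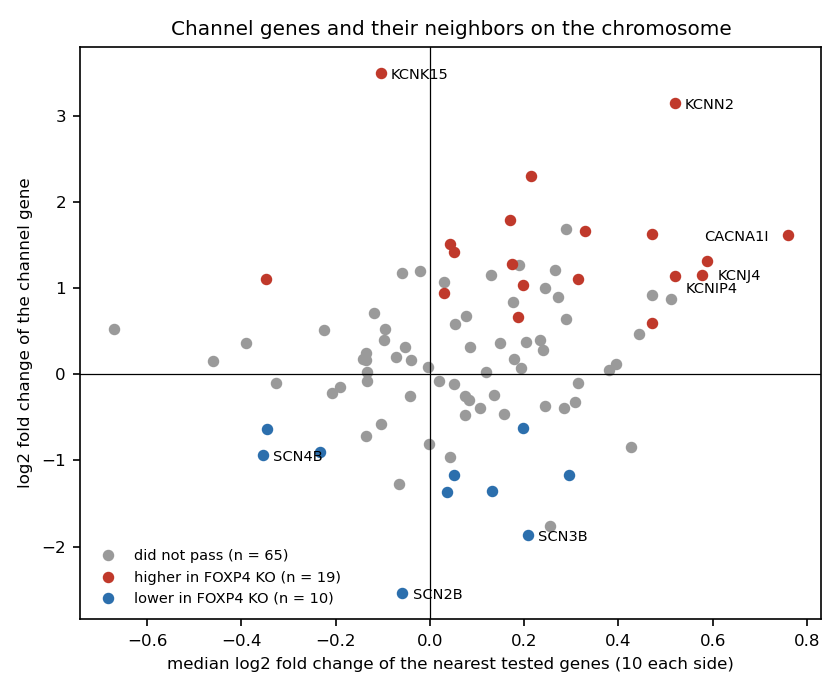
Log2 fold change of each tested channel gene (vertical axis, FOXP4 KO minus Control) against the median log2 fold change of the nearest tested genes, up to 10 on each side (horizontal axis). Red genes were higher in FOXP4 KO, blue genes lower and grey genes did not pass; CACNA1I and KCNJ4 lie far right at medians of 0.76 and 0.59, and KCNK15 lies at −0.10.

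FOXP4 is a forkhead protein, and forkhead proteins bind DNA at sites built on a short core, so the promoters of the channel genes were searched for it. The window ran from 250 bases before to 50 bases after a RefSeq gene start (GRCh38.p14), and 98 of the 140 channel genes and 20 of the 29 called ones had an entry. The motif GTAAACA, or TGTTTAC on the other strand, was in 1 of the 98 channel promoters, that of SCN11A, and in 0 of the 20 called ones, beside 3.41% of all 27305 promoters and 2.29% of those of tested genes. The shorter core AAACA, or TGTTT on the other strand, which lies inside the longer motif, was in 36 of 98 channel promoters (36.7%) and 10 of 20 called ones, beside 44.8% of all promoters and 31.2% of those of tested genes. The promoters of the 2 largest decreases and the 2 largest increases that had an entry are shown as examples of the windows searched, 5′ to 3′ on the strand of the gene, with matches to AAACA or TGTTT in capitals.
SCN2B promoter, chr11:118176590-118176889, reverse strand: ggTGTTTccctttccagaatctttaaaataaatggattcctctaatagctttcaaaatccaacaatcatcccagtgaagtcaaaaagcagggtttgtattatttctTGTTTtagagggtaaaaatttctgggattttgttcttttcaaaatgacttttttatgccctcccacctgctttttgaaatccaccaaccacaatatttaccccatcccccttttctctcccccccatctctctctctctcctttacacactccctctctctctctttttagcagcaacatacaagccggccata
KCNIP3 promoter, chr2:95346408-95346707, forward strand: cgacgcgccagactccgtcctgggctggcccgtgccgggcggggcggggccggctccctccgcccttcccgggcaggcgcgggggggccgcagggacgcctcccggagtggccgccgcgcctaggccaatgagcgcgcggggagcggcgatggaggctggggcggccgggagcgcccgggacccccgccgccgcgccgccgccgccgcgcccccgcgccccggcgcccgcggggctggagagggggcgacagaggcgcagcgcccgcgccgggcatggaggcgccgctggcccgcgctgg
KCNA4 promoter, chr11:30016981-30017280, reverse strand: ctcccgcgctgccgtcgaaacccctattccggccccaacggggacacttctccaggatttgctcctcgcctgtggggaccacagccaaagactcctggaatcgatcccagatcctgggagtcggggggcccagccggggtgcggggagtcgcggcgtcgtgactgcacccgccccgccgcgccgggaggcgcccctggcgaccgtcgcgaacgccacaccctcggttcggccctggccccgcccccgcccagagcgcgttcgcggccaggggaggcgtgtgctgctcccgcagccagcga
KCNN2 promoter, chr5:114361820-114362119, forward strand: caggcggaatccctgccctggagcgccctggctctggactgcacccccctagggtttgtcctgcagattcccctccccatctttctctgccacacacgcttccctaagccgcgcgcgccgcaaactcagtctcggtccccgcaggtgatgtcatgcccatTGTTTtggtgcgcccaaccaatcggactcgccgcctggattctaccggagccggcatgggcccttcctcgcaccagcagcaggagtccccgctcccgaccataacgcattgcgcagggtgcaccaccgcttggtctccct
SCN2B held 2 matches in an A- and T-rich window of 39.7% G and C, KCNN2 held 1 at 64.7%, and KCNIP3 and KCNA4 held 0 at 85.7% and 73.3%. The windows of KCNIP3 and KCNN2 lie inside the gene as GENCODE places it, so they cover a start other than the first of the gene, and which start these cells used was not measured. The SCN11A window, the only channel window with the longer motif, lies outside that gene as GENCODE places it. On chromosome 3 the window runs from 39051895 to 39052194 and the gene from 38845769 to 38950561. A match is a run of letters, not a measured binding site.

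Genes that work with these channels, 55 listed and 43 tested, gave 8 higher and 9 lower, beside 13.8% and 12.1% of all tested genes, with a median log2 fold change of 0.11. Sulfonylurea receptors, the regulatory subunits of ATP-sensitive potassium channels, were both higher. ABCC9 had 62 and 67 counts in FOXP4 KO, against 3 and 8 counts in Control (log2 fold change 3.43, adjusted p = 0.0065, edgeR), and ABCC8 had 455 and 451, against 191 and 266 (log2 fold change 0.88, adjusted p = 0.0196, edgeR). Of their pore subunits, KCNJ8 did not pass the test and KCNJ11 was near the threshold, as given above. Beside the sodium channels, FGF11 and ANK3, which encode a cytosolic channel-binding protein and the ankyrin that anchors channels in axons, were higher with log2 fold changes of 1.57 and 0.74. FGF13, of the same family as FGF11, was lower in counts (log2 fold change −1.52), but its TPM of 0.539 and 0.902 in FOXP4 KO and 0.601 and 0.180 in Control ran the other way, so its direction is unsettled. ITPR3, a calcium release channel of the endoplasmic reticulum, had 41.3 and 51.3 TPM in FOXP4 KO, against 9.14 and 10.2 TPM in Control (log2 fold change 2.29, adjusted p = 0.0013, edgeR). The related ITPR1 and ITPR2, with log2 fold changes of 0.43 and −0.13, did not pass the test. ATP2B4, a calcium pump of the plasma membrane, had 14.0 and 14.5 TPM in FOXP4 KO, against 34.9 and 30.9 TPM in Control (log2 fold change −1.07, adjusted p = 0.0048, edgeR). The calcium store sensor gene STIM1 was lower, with a log2 fold change of −0.65.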

How the data were processed

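RNA sequencing libraries of HEK293T cells, 2 FOXP4 KO and 2 Control, were grouped by the labels. The library kit selects mRNA. The authors deposited raw counts per gene, in a table with no count of 0, and TPM values per gene scaled to library totals. The tool used for mapping and that for counting were not given in the sources used here. Builds of the mouse genome, GRCm38 and mm10, are named in the submitters' processing notes, although the genes are human. The TPM columns of FOXP4 KO could not be tied to a replicate and were used as a group, so their order need not match that of the counts.

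The two-sided quasi-likelihood test of edgeR 4.0.16 (R 4.3.3) was run on the counts after filterByExpr and TMM scaling, as FOXP4 KO minus Control, with p-values adjusted by Benjamini and Hochberg over 14620 genes and a threshold of 0.05. The common biological coefficient of variation was 0.165 and the prior degrees of freedom were 4.30. SE is the log2 fold change over the square root of F, and CPM are TMM-normalised. An exact permutation test of 2 against 2 libraries cannot give a p below 0.333. The script was tested on simulated data. Positions are GRCh38 (GENCODE v29), by Ensembl identifier. Libraries of a group differed beyond sampling noise and were kept as separate replicates.

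Named genes are every channel gene with an adjusted p under 0.05, the 10 with the highest mean TPM, those found only in the TPM table with at least 1 TPM in a library (0 genes) and FOXP4. A few genes are counted but not reported here by name. Other genes were named after their values were seen. The genes and lists were chosen with earlier results of these data known. Alternatives were DESeq2 1.42.0, limma 3.58.1 (voom on counts, trend on log2 TPM with pseudocounts of 1 and 0.1), other scalings and filters, other TPM thresholds, a replicate block and each library left out. Protein sequences were not analysed here.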

Additional observations from a re-analysis of the deposited data

Results flagged for a closer look

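Channel genes found only in the TPM table enter no test, and 4 of the 37 were above 0 in both FOXP4 KO libraries while listed at 0 in both Control libraries. Their FOXP4 KO means were 0.101 TPM for KCNH8, a voltage-gated potassium channel pore of the ether-a-go-go family, 0.0855 TPM for KCNIP1, a KChIP protein, 0.0700 TPM for CACNG1, the gamma subunit of skeletal muscle, and 0.0152 TPM for KCNH7, of the same family as KCNH8. In the opposite pattern, 1 gene was above 0 in both Control libraries and listed at 0 in both FOXP4 KO libraries. The highest of these levels in a library was 0.124 TPM, in KCNIP1, and a listed 0 in this table does not show that a transcript was absent. KCNA1, given above with its higher levels in Control, is in neither pattern, because it was above 0 in a FOXP4 KO library.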

How the results depend on the processing

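With all 4 libraries, 19 channel genes were called higher and 10 lower. The counts stayed within 1.5 times of these under DESeq2, limma-voom, RLE and upper-quartile scaling, no filter and at least 10 counts in every library. On log2(TPM + 1) limma called 12 higher and 5 lower, and on log2(TPM + 0.1) 11 higher and 5 lower, of 59 channel genes that passed a filter of 1 TPM in 2 libraries. Fits without 1 library called 3 to 29 channel genes higher and 1 to 8 lower, with the lone library assumed to vary like the other group. The log2 fold change of CACNA2D2, −0.11 and not called, ran between −0.30 and 0.0828 in these fits, at 0.0828 without Control library 2 and 0.0432 without FOXP4 KO library 1, and the cause was not tested. Upper-quartile scaling moved the median of all genes to 0.0849. Replicate numbers did not pair the libraries (correlation of deviations −0.0026), and a fit with a replicate block called 22 higher and 8 lower. Genes with few reads, such as KCNK15 in Control with 4 and 18 counts, carry the widest errors, and with 2 libraries a group a gene that did not pass was not shown to be equal.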
